A study of Mus musculus with 248 samples.

Results

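A set of 9 chemokine receptors carried by blood leukocytes was followed through the course of an inducible leukemia in mice: Cxcr2, Cxcr3, Cxcr4, Cxcr5, Cxcr6, Cx3cr1, Ccr1, Ccr2 and Ccr7. They were chosen by gene symbol, and all 9 of 9 were found by Ensembl identifier in both deposited expression tables, among 18508 genes in the training cohort and 13607 in the validation cohort. Blood was drawn repeatedly from C57BL/6 mice. The CM arm carried Cbfb+/56M together with Mx1-Cre, so that Cbfb-MYH11, the fusion gene of inversion 16 acute myeloid leukemia, was switched on by interferon-responsive recombination. The Ctrl arm was made of littermates that were wild type, or carried Cbfb+/56M or Mx1-Cre alone. Both arms received poly(I:C) at 14 mg/kg, 7 doses, at 4 to 8 weeks of age, so that the controls also carry the effect of that interferon inducer, and Mx1-Cre is not restricted to 1 blood lineage. The training cohort held 55 libraries from 7 CM mice and 77 from 7 Ctrl mice at months T0 to T10. The validation cohort held 68 libraries from 13 CM mice and 48 from 8 Ctrl mice. It had monthly libraries (T0 to T6), 6 CM libraries drawn at leukemia (L), and a weekly series of 3 CM and 2 Ctrl mice. Leukemia was defined in the labels by more than 20% cKit+ blasts.

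Chemokine receptors are G protein-coupled receptors that steer leukocytes along gradients of small secreted proteins, and each blood cell type carries its own set. Cxcr2 and Ccr1 guide neutrophils and other myeloid cells to inflamed tissue, Ccr2 lets classical monocytes leave the marrow, and Cx3cr1 marks patrolling monocytes and mature natural killer (NK) cells. Cxcr4 retains stem cells and neutrophils in marrow by binding Cxcl12, Ccr7 and Cxcr5 bring lymphocytes into lymph nodes and B cell follicles, and Cxcr3 and Cxcr6 mark effector T and NK cells.

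Depth ran from 16 to 36.26 M reads a library (training) and from 8.68 to 34.41 M (validation). Values are log2 CPM, the logarithm of reads per M reads of the library. In bulk blood RNA, fewer cells of a type and less RNA per cell cannot be told apart. In the validation cohort each month, and L, carried a batch letter of its own in the labels. T0, T1 and L were unstranded while T2 to T6 were stranded. Time and batch cannot be told apart there, L against T0 included, while each comparison of arms lies within 1 batch. Globin genes took a median of 1.02% of reads in training Ctrl libraries at T0, 29.9% at T6, 7.28% at T7 and 31.2% at T10, which touches every late value of that cohort. The T0 library of CM mouse 2731, labelled female, went against its label (Xist 1.24 and Ddx3y 5.21 log2 CPM), the only one of 248 to do so. CM mouse 2700 averaged -3.67 log2 CPM of the transgene transcript listed as MHY11, against 3.30 to 4.62 in the other 12 validation CM mice. Validation Ctrl mice 2705 and 2720 averaged 3.09 and 3.17, and the other validation Ctrl mice -6.30 to -4.07. The 7 training CM mice averaged -3.68 to -1.82, above every training Ctrl mouse (-6.52 to -4.32). Mice 2705 and 2720 have the Ctrl genotype labelled HW, as do training Ctrl mice 3335 (-4.32) and 3340 (-4.96). The other training Ctrl mice averaged -6.52. The level of this transcript thus followed the arm in the training cohort, but not in every validation mouse. Mice 2731 and 2700 were both kept as labelled, and results that change without them are given so. The samples are labelled PBMC, while the protocol describes blood from the retro-orbital sinus, and the labels do not say whether granulocytes were removed. The 8 neutrophil markers summed to 1311 to 12852 CPM in training CM and 2287 to 5654 CPM in training Ctrl libraries at T0, and to 2196 to 9656 and 1890 to 4876 CPM in the validation cohort. Cxcr5, Cxcr6 and Cx3cr1 overlap other annotated genes (Bcl9l, Fyco1 and Gm33858), and Ccr1 and Ccr2 have close paralogs, so reads shared with these could not be told apart.

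The promoter windows are shown for the pair of receptors that differed between arms at month 1 of the training cohort, Cx3cr1 and Cxcr4, and for the pair that did not pass the test at leukemia, Ccr2 and Cxcr3. Cbfb is the partner of the Runx factors, and the capitals mark the Runx core, searched as TGTGGT and, on the other strand, ACCACA. Each window runs from 250 bases before to 30 bases after the start site in RefSeq (GRCm38.p6), 5' to 3' along the gene. The windows lie at chr9:120068267-120068546 (minus strand), chr1:128592270-128592549 (minus strand), chr9:124101933-124102212 (plus strand) and chrX:101734118-101734397 (minus strand), in the order printed. The RefSeq gene Ccr2 begins at 124101918, before its window, so that window was placed on a start site inside the gene.
Cx3cr1: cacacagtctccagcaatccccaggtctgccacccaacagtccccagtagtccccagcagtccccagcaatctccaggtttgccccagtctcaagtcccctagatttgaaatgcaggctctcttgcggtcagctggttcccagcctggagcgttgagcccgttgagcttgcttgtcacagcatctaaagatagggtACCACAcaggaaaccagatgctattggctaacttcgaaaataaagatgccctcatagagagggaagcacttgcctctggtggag
Cxcr4: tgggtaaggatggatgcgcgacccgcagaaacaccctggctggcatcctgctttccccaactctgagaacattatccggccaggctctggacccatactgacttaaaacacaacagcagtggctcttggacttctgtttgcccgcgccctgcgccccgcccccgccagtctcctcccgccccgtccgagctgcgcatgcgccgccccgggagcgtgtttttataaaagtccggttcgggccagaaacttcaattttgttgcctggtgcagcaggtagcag
Ccr2: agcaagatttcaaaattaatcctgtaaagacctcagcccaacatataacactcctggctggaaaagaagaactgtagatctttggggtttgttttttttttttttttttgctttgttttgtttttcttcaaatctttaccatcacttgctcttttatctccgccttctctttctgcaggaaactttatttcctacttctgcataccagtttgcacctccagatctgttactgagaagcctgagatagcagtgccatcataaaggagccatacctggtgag
Cxcr3: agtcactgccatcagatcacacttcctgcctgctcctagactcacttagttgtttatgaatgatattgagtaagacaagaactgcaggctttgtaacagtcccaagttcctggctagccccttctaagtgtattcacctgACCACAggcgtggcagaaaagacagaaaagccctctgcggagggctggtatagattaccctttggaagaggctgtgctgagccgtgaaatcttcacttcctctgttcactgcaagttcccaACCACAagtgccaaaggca
The Cx3cr1 window held 1 Runx core, 54 bases before the start site. The Cxcr3 window held 2, and the Cxcr4 and Ccr2 windows held 0. Among the other receptors the windows of Cxcr6 and Ccr1 held 1 each and that of Cxcr2 held 0. Windows were read for 7 of the 9 receptors. A Runx core was present in 15.6% of the 32851 promoter windows of the same length, and a match is a description of the letters only. With the last base free (TGTGGN), 53.3% of windows matched, and a GATA motif (AGATAA, both strands) was in 10.7%, among them the Ccr2 window with 1.

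At T0, before poly(I:C), levels per kilobase of exon put Cxcr4 highest, then Ccr7, then Cxcr5 in both cohorts. The mean over the 14 training mice was 7.75 ± 0.39 log2 CPM per kb (SD) for Cxcr4, 7.26 ± 0.40 for Ccr7 and 6.78 ± 0.42 for Cxcr5. Cxcr6 was lowest in the training cohort at 1.51 ± 0.66, and Cxcr3 was lowest in the validation cohort at 2.13 ± 0.50 over 16 mice. Neighbours in the order were compared by an exact sign-flip test over mice, 8 pairs in each cohort and 16 in all, with Benjamini-Hochberg adjustment. Cxcr4 lay above Ccr7 in 13 of 14 training mice (adjusted exact p = 0.000868) and in 16 of 16 validation mice (adjusted exact p = 0.000122). Ccr2 and Cx3cr1 could not be ordered in the training cohort (difference 0.05 ± 0.63 log2, SD; adjusted exact p = 0.84), nor Cxcr2 and Ccr2 in the validation cohort (0.07 ± 0.82; adjusted exact p = 0.806). Other neighbours that did not pass were Cxcr5 over Cxcr2 (adjusted exact p = 0.0602) and Cx3cr1 over Ccr1 (0.388) in the training cohort and Ccr2 over Ccr1 (0.301) in the validation cohort. In these means Cxcr4, Ccr7 and Cxcr5 lay above Ccr2 and Cx3cr1 in both cohorts.

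No receptor separated the arms at T0. Of the 9, 0 passed limma's moderated test in either cohort, with sex as a covariate and p-values adjusted by Benjamini-Hochberg across the whole table (0.0054% of all genes passed in training and 0% in validation; at an unadjusted p under 0.05, 1715 and 208 genes did). The largest difference in the training cohort was that of Cxcr5, -0.34 log2, and in the validation cohort that of Ccr2, 0.38 log2.

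**Figure D1:**
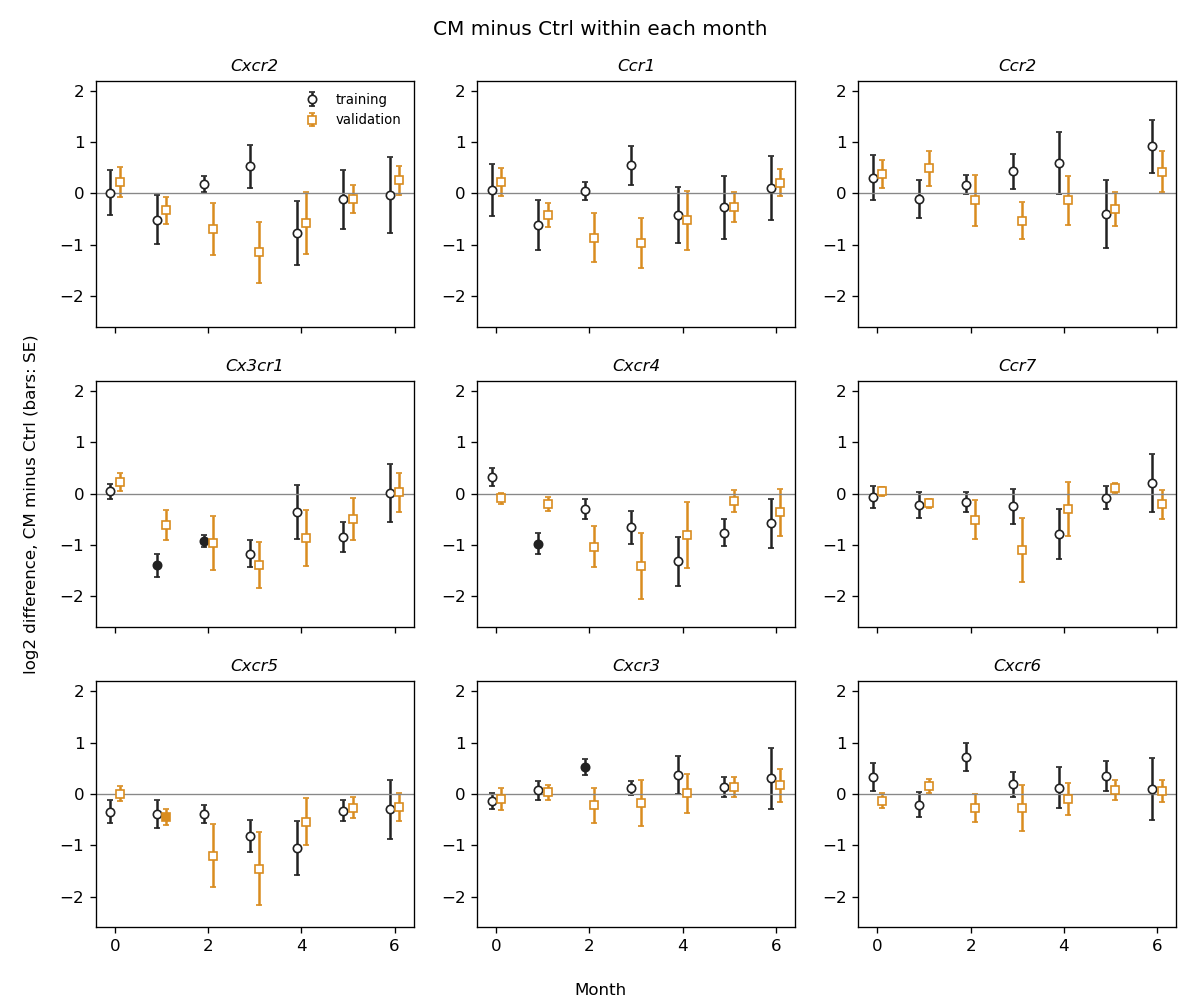
CM minus Ctrl difference in log2 CPM for the 9 receptors (y axis) at months 0 to 6 (x axis), training cohort as circles and validation cohort as squares, with bars for the standard error; filled symbols have an adjusted p under 0.05. Cx3cr1 was below 0 at months 1 to 5 in both cohorts and close to 0 at month 6.

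Cx3cr1, the fractalkine receptor, separated the arms from month 1. At month 1 of the training cohort the 7 CM libraries lay between 4.29 and 5.82 log2 CPM and the 7 Ctrl libraries between 6.17 and 6.85, with no overlap. The difference was -1.39 ± 0.23 log2 (SE; limma adjusted p = 0.00269). At month 2 the CM libraries lay between 5.45 and 5.97 and the Ctrl libraries between 6.44 and 6.95, again apart (-0.92 ± 0.11; limma adjusted p = 0.000366). At month 3 the arms did not overlap either, but the test was missed (-1.17 ± 0.26; limma adjusted p = 0.0587). Only Cx3cr1 of the 9 was free of overlap at months 1 and 2; 3.1% and 5.43% of all genes were. At month 3 Cxcr5 was too, and 2.43% of all genes were.

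Cxcr4, the Cxcl12 receptor, was also lower at month 1 of the training cohort. All but 1 of the CM libraries lay between 7.49 and 8.28 log2 CPM, below every Ctrl library (8.86 to 9.52), and that of mouse 3334 stood at 9.13. The difference was -0.97 ± 0.20 log2 (limma adjusted p = 0.0122), and leaving out Ctrl mouse 3349 or 3350 took it to a limma adjusted p of 0.0521 or 0.0638. At month 2 Cxcr4 stood at -0.29 ± 0.20 and did not pass (limma adjusted p = 0.367). In all, 2 of 9 receptors passed at month 1, where 5.02% of all genes did (3.68% higher and 1.34% lower), and 2 of 9 at month 2, where 11.7% did (5.46% higher and 6.25% lower). The second at month 2 was Cxcr3, an effector T cell receptor, higher by 0.53 ± 0.15 log2 in the CM arm (limma adjusted p = 0.0374). Its CM libraries lay between 3.15 and 4.13 and its Ctrl libraries between 2.66 and 3.27, overlapping, and it passed in only 4 of the 14 fits that left out 1 mouse (adjusted p up to 0.117). In a single fit over all months with the mouse as replicate block, which called 2.21% of all genes at month 1 and 0.87% at month 2, Cx3cr1 still passed at month 1 (-1.41; limma adjusted p = 0.0299), Cxcr4 did not (-0.97; limma adjusted p = 0.252), and 0 of 9 passed at month 2, with Cx3cr1 at -0.87 (limma adjusted p = 0.527). At months 3, 4, 5 and 6 limma passed 0 of the 9 (0.632%, 0.0054%, 0% and 0.0162% of all genes passed; 2793, 1030, 1583 and 1661 did at an unadjusted p under 0.05).

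Marker lists of the cells that carry these receptors differed at the same months. Of 7 NK cell markers, 6 were lower in the CM arm at month 1 of the training cohort (median -1.11 log2, against -0.18 over all genes). The summed level of the 7 was 35.4 to 101.4 CPM in the CM arm and 104.7 to 181 CPM in the Ctrl arm. Of 5 non-classical monocyte markers, 1 was lower, Treml4 (-0.85 ± 0.19; limma adjusted p = 0.0213), with a summed level of 449 to 916 CPM against 752 to 950 CPM. At month 2 all 9 T cell markers were higher in the CM arm (median 1.22) and 5 of 7 B cell markers lower (median -0.78). Their part in the receptor differences was not tested.

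The validation cohort gave the same direction for Cx3cr1 but did not pass. At month 1 the 10 CM libraries ran from 4.78 to 7.05 log2 CPM and the 6 Ctrl libraries from 5.80 to 6.41, overlapping, and 8 of 10 CM libraries lay below the Ctrl mean. The difference was -0.61 ± 0.29 log2 (limma adjusted p = 0.129), with a 95% interval from -1.23 to 0.01. It passed once CM mouse 2685 was left out (-0.79; limma adjusted p = 0.00982). Only 1 of 9 receptors passed at month 1, where 28.5% of all genes did (7.95% higher and 20.6% lower): Cxcr5, the B cell follicle receptor. Its CM libraries ran from 6.98 to 8.23 and its Ctrl libraries from 8.05 to 8.45, overlapping (-0.45 ± 0.15; limma adjusted p = 0.0412). That call was lost in 10 of the 16 fits that left out 1 mouse, with an adjusted p up to 0.106, and under median-ratio and quantile scaling. Of 7 NK cell markers 7 were lower in the CM arm at that month (median -0.86), and of 7 B cell markers 5 were lower (median -0.76), and their part was not tested. Cxcr4 at that month was -0.20 ± 0.13 (limma adjusted p = 0.258; 95% interval -0.47 to 0.08). Without CM mouse 2700, which was low in the transgene transcript, Cxcr4 passed (-0.28; limma adjusted p = 0.0454). At months 2 to 6 limma passed 0 of the 9 (0.147% of all genes at month 2 and 0% after; 1374, 2224, 369, 1169 and 469 genes at an unadjusted p under 0.05). At month 3 all 9 estimates were negative, from -0.17 for Cxcr3 to -1.45 for Cxcr5. CM mice 2690 and 2719 stood highest in Kit at that month (8.57 and 10.20 log2 CPM) and low in Ccr7 (4.64 and 4.64), Cxcr5 (4.30 and 3.08) and Cxcr4 (4.87 and 4.45), lowest of the CM mice in each. Without 2690 the Ccr7 difference was -0.73 and without 2719 -0.74, against -1.09 with both, and the part of these mice was not tested further. A single fit over all months with the mouse as replicate block called 5 of the 9 there, all lower, where it called 19.6% of all genes (11.7% lower): Cxcr2, Cxcr4, Cxcr5, Cx3cr1 and Ccr7 (limma adjusted p of 0.0438, 0.0135, 0.0161, 0.0117 and 0.027).

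Cxcr4 and Cxcr5 were lower in the CM arm at 6 of 6 months after T0 in both cohorts, with Cxcr4 between -1.32 and -0.29 log2 in the training cohort and between -1.42 and -0.14 in the validation cohort. Cx3cr1 was lower at 5 of 6 months in both. Cxcr3, by contrast, was lower at 0 of 6 months in the training cohort and 2 of 6 in the validation cohort. Months of a cohort share mice, so these counts are no test.

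**Figure D2:**
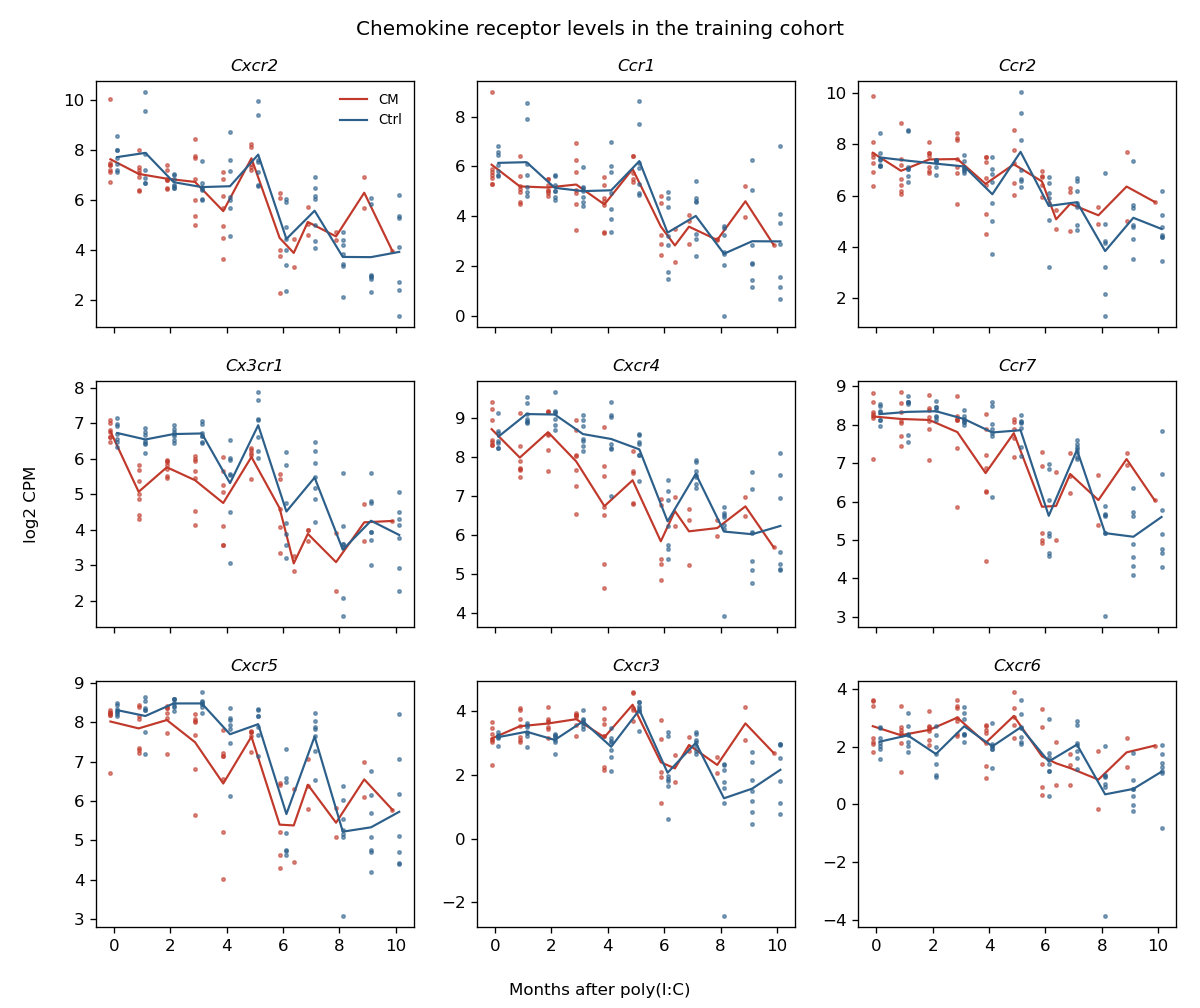
log2 CPM of the 9 receptors (y axis) against months after poly(I:C) (x axis) in the training cohort, 1 point a library, lines joining the means of the CM and Ctrl arms. At month 6 the mean levels were below those at T0 in both arms, and in Ctrl mice they were higher again at T7. Mean Cxcr2 in Ctrl mice was 7.82 at T5, 4.45 at T6, 5.58 at T7 and 3.93 at T10. In the CM arm a lower level was seen before month 6: mean Cxcr4 was 7.85 log2 CPM per kb at T0, 5.88 at T4 and 4.98 at T6.

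The receptors fell late in Ctrl mice too. From T0 to T1 limma passed 0 of the 9 in the training cohort (0% of all genes did, and 1151 at an unadjusted p under 0.05). From T0 to T10, 9 of 9 fell, where 72.7% of all genes fell and the median of all genes was -1.81 log2. Ccr2 fell by 2.79 ± 0.32 log2 (limma adjusted p = 0.000512) and Cx3cr1 by 2.87 ± 0.34 (limma adjusted p = 0.00055). With median-ratio scaling, which takes the median of all genes to -0.16, 5 of 9 fell, where 3804 of 18508 genes fell and 4503 rose. Cxcr3 rose by 0.68 and Cxcr6 stood at 0.67 on that scale, so the direction of Cxcr3 and Cxcr6 rests on the scaling. At T5, with a median of 3.56% globin reads, 1 of 9 passed against T0, Cxcr3, which rose by 0.85 (limma adjusted p = 0.00824). The share of all genes that passed at T5 is not given here, so that count has no background. With globin reads removed, 7 of 9 still fell from T0 to T10, where 12414 of 18498 genes fell and the median of all genes was -1.39 log2. The part of the globin share was not tested further. In the validation cohort 3 of 9 passed from T0 to T1, where 33.3% of all genes did: Cxcr3 rose by 0.75 ± 0.15 log2, Cxcr5 rose by 0.59 ± 0.11 and Cxcr4 fell by 0.44 ± 0.10 (limma adjusted p of 0.00897, 0.00732 and 0.0179). T0 and T1 were different batches.

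In blood drawn at leukemia (L), 7 of 9 receptors had fallen from the same mouse's T0 library (median of the 9, -2.43 log2), where 33% of all genes fell and the median of all genes was -0.04 log2. The lymphocyte-homing receptors fell furthest. Ccr7 went from 8.33 to 8.78 log2 CPM at T0 to 4.41 to 5.50 at L in the 6 mice, without overlap (-3.64 ± 0.19; limma adjusted p = 2.8e-06). Cxcr5 went from 7.16 to 8.01 down to 3.31 to 4.76, without overlap (-3.50 ± 0.25; limma adjusted p = 1.29e-05). Cxcr4 had the narrowest spread: its L libraries stood at 6.31, 6.30, 6.68, 6.5, 6.05 and 6.24 in mice 2684, 2690, 2708, 2718, 2719 and 2731, and every one was below the T0 range of 8.59 to 9.05 (-2.43 ± 0.10; limma adjusted p = 1.11e-06).

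The myeloid receptors did not move together. Cxcr2 fell by 2.91 ± 0.47 log2 (limma adjusted p = 0.000812), Ccr1 by 2.0 ± 0.31 (limma adjusted p = 0.00063) and Cx3cr1 by 2.64 ± 0.36 (limma adjusted p = 0.000352). Ccr2 did not pass: it was 7.75, 9.38, 8.29, 7.17, 8.84 and 8.22 log2 CPM at L in the same 6 mice, overlapping its T0 range of 8.12 to 9.11 (-0.34 ± 0.35; limma adjusted p = 0.418). Per kilobase, Ccr2 ranked 5 of 9 in the CM arm at T0 and 1 at L, at 5.60 log2 CPM per kb against 5.49 for Cxcr4. Ccr2 lay above Cxcr4 in 3 of 6 mice at L, with differences from -1.14 to 1.26 log2 over the mice, and their order was not tested. Cxcr3 did not pass either (-0.99 ± 0.46; limma adjusted p = 0.086), though it did without mouse 2731, whose T0 library is the doubtful one (-1.40; limma adjusted p = 0.015). Mouse 2690 stood apart at L in Cxcr2 (7.82, against 3.28 to 6.13 in the others) and Ccr1 (7.44, against 3.95 to 5.69).

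These falls came with a change in what the blood held. Kit, the receptor that defines the blasts, rose by 8.84 ± 0.38 log2 (limma adjusted p = 1.11e-06). All 7 B cell, 9 T cell and 7 NK cell markers fell (medians -4.79, -1.93 and -5.22), and the summed B cell markers went from 2568 to 4593 CPM at T0 to 61.9 to 338 CPM at L. Of 5 classical monocyte markers 1 rose and 1 fell, with a summed level of 564 to 1097 CPM at T0 and 467 to 3101 CPM at L. Of 5 non-classical monocyte markers 4 fell and 1 rose. The part of these cells in the receptor changes was not tested. Ptprc (CD45), carried by all leukocytes, fell by 2.62 ± 0.29 log2 (limma adjusted p = 0.000119). Relative to Ptprc, an alternative chosen after the data were seen, Ccr2 (2.28) and Cxcr3 (1.62) were higher at L and Cxcr5 (-0.88) and Ccr7 (-1.02) lower. The median of all genes on that scale was 2.57, so Ptprc is no steady reference here.

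**Figure D3:**
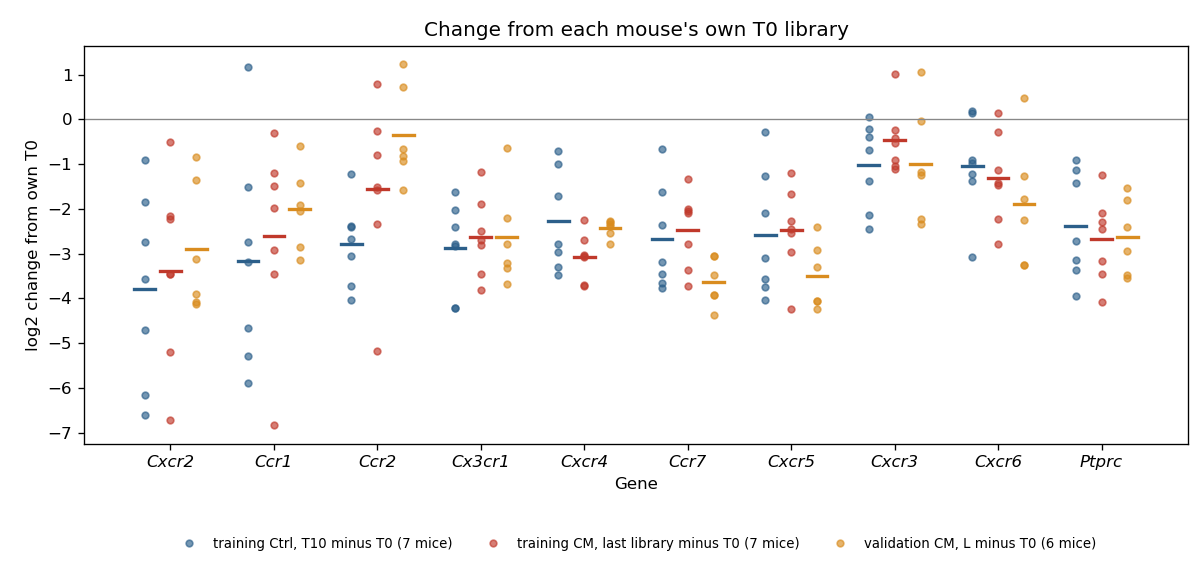
log2 change from each mouse's own T0 library (y axis) for the 9 receptors and Ptprc (x axis), 1 point a mouse and a bar at the mean, in training Ctrl mice at T10, training CM mice at their last library and validation CM mice at L. Ccr2 sits near 0 in the L libraries (mean -0.34) and at -2.79 in the Ctrl mice at T10.

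In the training cohort 8 of 9 receptors fell from T0 to the last library of each CM mouse (T4 to T10), where 46% of all genes passed, 35.9% lower and 10.1% higher. The median of the 9 was -2.48 log2 and that of all genes -0.57. Cxcr4 fell in 7 of 7 mice, from 8.29 to 9.40 log2 CPM down to 4.66 to 6.97 (-3.07 ± 0.24; limma adjusted p = 1.33e-05). Cxcr3 was the exception (-0.46 ± 0.33; limma adjusted p = 0.275), and Ccr2 (-1.55 ± 0.55; limma adjusted p = 0.0378) passed in 2 of the 7 fits that left out 1 mouse. It was -0.95 (limma adjusted p = 0.0673) without mouse 3334, whose T0 library stood apart in Cxcr2, Ccr1, Cxcr5 and Ccr7. Kit was 6.61 to 9.45 log2 CPM in 6 of these libraries and 2.34 in that of mouse 3368. Ctrl mice also fell late, so the change was set against the Ctrl change from T0 to T7. In the CM arm 4 of 9 then fell further, where 24.1% of all genes passed, 15.7% lower and 8.42% higher: Cxcr4 (-2.11 ± 0.27; limma adjusted p = 0.000362), Cxcr5 (-1.68 ± 0.41; limma adjusted p = 0.00774), Cx3cr1 (-1.45 ± 0.44; limma adjusted p = 0.0239) and Ccr7 (-1.45 ± 0.35; limma adjusted p = 0.00689). Among the 9, the Cxcr4 changes were the only ones that did not overlap between arms, where those of 5.1% of all genes did not. Cx3cr1 no longer passed without CM mouse 3334 (-1.19; limma adjusted p = 0.0674) or Ctrl mouse 3349 (-1.30; limma adjusted p = 0.093). With the Ctrl change to T10 in its place limma passed 0 of 9, and Cxcr5, Cx3cr1 and Ccr7 stood at 0.39, 0.21 and 0.43, so these calls and directions rest on the control month. The share of all genes that passed with that control month is not given here.

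Against Ctrl mice of the same month, with T6 in place of T6.5 for mouse 3334 since no Ctrl mouse was drawn at T6.5, the Cxcr4 change was more negative in 6 of 7 CM mice, from -3.67 in mouse 3338 to 0.25 in mouse 3370, with a mean of -1.62 log2. The mean was -0.64 for Cx3cr1, -0.65 for Cxcr5 and -0.61 for Ccr7, and 0.38 for Ccr2. Mouse 3370 went the other way, with 6 of 9 receptors above the range of the Ctrl libraries at T9. The last CM libraries held 0.213% to 21.7% globin reads, and the part of this spread was not tested.

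**Figure D4:**
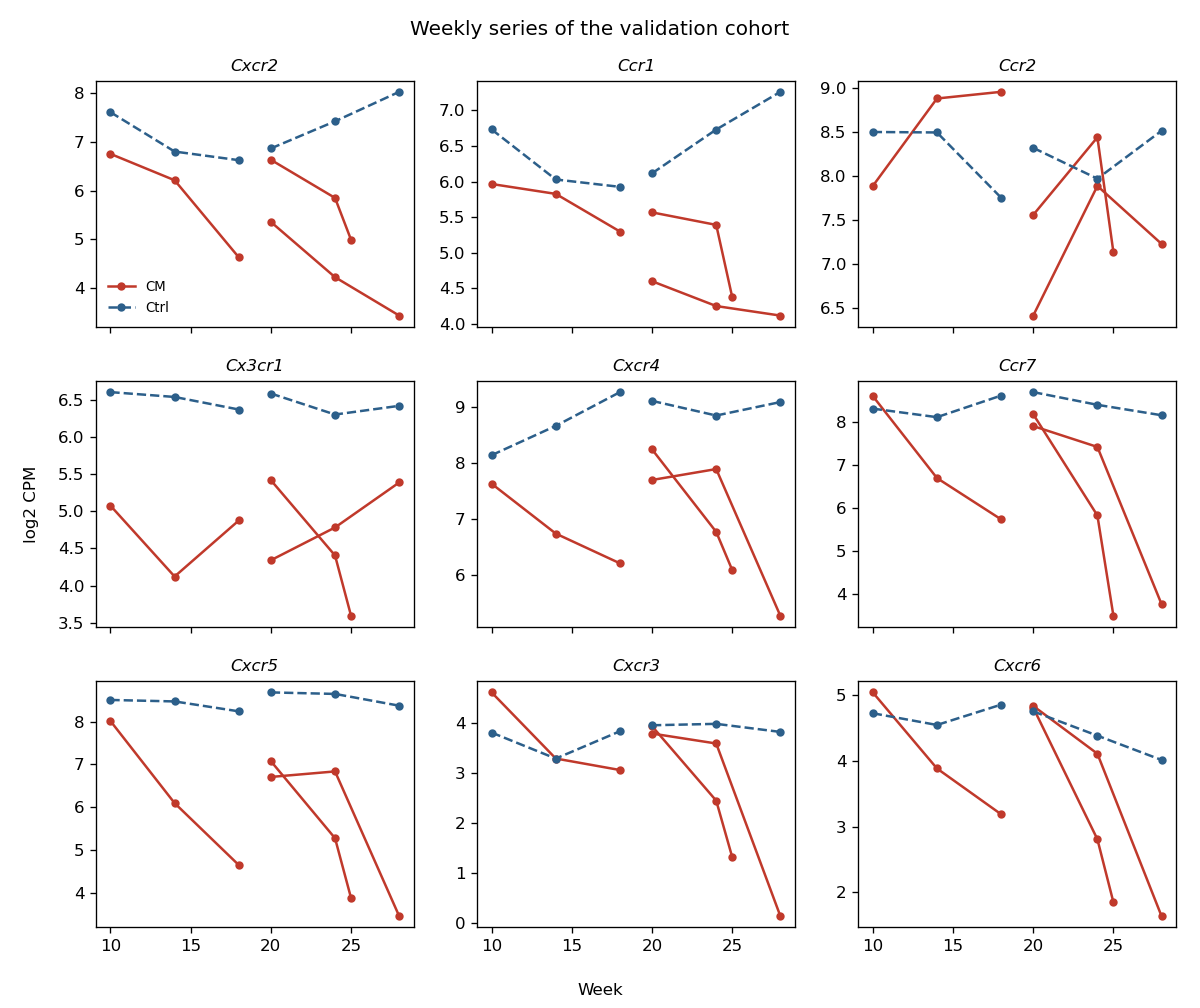
log2 CPM of the 9 receptors (y axis) by week (x axis) in the weekly series, 3 CM mice as solid lines and 2 Ctrl mice as dashed lines. The 3 CM lines of Ccr7 end at 5.74, 3.50 and 3.77, while those of Ccr2 stay between 6.41 and 8.96.

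The weekly series is described by mouse with no test, since no week holds more than 2 CM mice. In CM mouse 3130 Ccr7 was 8.18, 5.83 and 3.50 log2 CPM at weeks 20, 24 and 25, while Kit was 5.62, 8.95 and 11.19. In CM mouse 3131 Cxcr4 was 7.69, 7.88 and 5.26 at weeks 20, 24 and 28, and Cx3cr1 went the other way, at 4.34, 4.78 and 5.39. In CM mouse 3200 Cxcr5 was 8.02, 6.10 and 4.65 at weeks 10, 14 and 18, while Ccr2 was 7.89, 8.88 and 8.96. In Ctrl mouse 3202 Ccr2 was 8.50, 8.50 and 7.75 and Cxcr5 8.51, 8.47 and 8.24 over the same weeks.

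Ligands were read in the same libraries. At month 1, 5 of 24 measured chemokine ligands were higher and 1 lower in the CM arm of the training cohort. In the validation cohort 5 of 18 were higher and 0 lower. Of all genes, 3.68% were higher and 1.34% lower in the training cohort and 7.95% and 20.6% in the validation cohort. Cxcl12, the ligand of Cxcr4, had 4 to 185 reads in the training CM libraries at T1 and 0 to 5 in the Ctrl libraries (limma adjusted p = 0.00735). It rose at month 1 of the validation cohort too, where the Ctrl libraries had 0 to 4 reads (limma adjusted p = 0.011). At L it had 57 to 496 reads in the 6 libraries, against 0 to 2 in the CM libraries at T0. Ackr1, a scavenging receptor that binds chemokines without signalling and is carried by red cell precursors, had 1018 to 5020 reads at L and 0 to 12 at T0. It was higher in the CM arm at month 1 in both cohorts (3.09 ± 0.46 and 3.37 ± 0.61; limma adjusted p of 0.00156 and 0.00416). Ccl2, the ligand of Ccr2, was higher in the CM arm at month 1 in both cohorts (2.81 ± 0.65 and 2.70 ± 0.44; limma adjusted p of 0.0224 and 0.00416). In the validation cohort the CM libraries ran from -0.60 to 1.90 log2 CPM at T0 and from -1.01 to 2.36 at T1. The Ctrl libraries ran from -1.13 to 0.58 at T0 and from -2.77 to -1.02 at T1, where they had 2 to 8 reads. All 4 erythroid markers were higher in the CM arm at month 1 in both cohorts (medians 2.93 and 2.05), and their part was not tested. Of 11 other chemokine receptors 6 fell to the last training library and 1 rose, where 35.9% of all genes fell and 10.1% rose. At L 4 of 8 fell and 1 rose, where 33% fell and 31.4% rose. Ccr6, a B cell receptor, fell by 4.43 ± 0.36 log2 at L (limma adjusted p = 2.46e-05).

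Of 21 genes for receptor signalling and desensitisation, 10 rose and 7 fell at L (median 0.20), where 31.4% of all genes rose and 33% fell. Pik3r5, the regulatory subunit of the kinase downstream of chemoattractant receptors, fell by 2.59 ± 0.29 (limma adjusted p = 0.000111), and Grk3, which phosphorylates active receptors, fell by 1.90 ± 0.40 (limma adjusted p = 0.00344). In the last training libraries they fell by 2.41 ± 0.28 and 2.04 ± 0.27 (limma adjusted p of 0.000107 and 0.000176).

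Correlations between the receptors depended on the libraries taken. Over the 55 CM and 77 Ctrl training libraries Pearson's r was 0.97 between Cxcr5 and Ccr7 and 0.96 between Cxcr2 and Ccr1, and over the 68 and 48 validation libraries 0.92 and 0.94. Over the 28 early Ctrl libraries (T0 to T3) Cxcr2 and Ccr1 gave 0.98, Cxcr5 and Ccr7 0.69, Cxcr3 and Cxcr6 0.36 (0.83 over all training libraries) and Cxcr2 and Cxcr5 -0.84 (0.76 over all). Receptors of different cells also ran together over all training libraries, such as Cxcr2 with Cxcr4 (0.81) and with Ccr7 (0.80), which gave 0.09 and -0.48 over the early Ctrl libraries. Libraries share mice, depth and the late globin share, and these values are descriptions. The genes most like each receptor over the training libraries were as follows. Cxcr2 ran with Mmp9 (r = 0.98, and 0.96 in validation), Dhrs9 and Fgl2. Cxcr5 ran with H2-DMb2 (0.99 and 0.98), Faim3 and Ighm. Cxcr3 ran with Il2rb (0.93 and 0.85), Abcb1a and Thy1. Cxcr4 ran with Sik1 (0.96 and 0.86), Stk17b and Pde4b. Cxcr6 ran with Ms4a4b (0.89 and 0.86), Trbc1 and Abcb1a. Cx3cr1 ran with Dusp6 (0.95 and 0.89) and Zfyve9 (0.95 and 0.83). Ccr1 ran with S100a8 (0.97 and 0.90), Lilrb4 and Cd33, though Lilrb4 gave only 0.48 in validation. Ccr2 ran with Ms4a6c (0.96 and 0.77), S100a4 and Fn1. Ccr7 ran with Shisa5 (0.97 and 0.95), Satb1 and Gpr132.

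Ctrl mice of the training cohort differed from each other less in Cxcr3, Cxcr4 and Ccr7 than in Cxcr2 and Ccr1, with the other receptors between. Over T0 to T5 the SD between the means of the 7 training mice was 0.21 log2 for Cxcr5, 0.31 for Cxcr6, 0.33 for Cx3cr1 and 0.52 for Ccr2. It was 0.07 log2 for Cxcr3, 0.15 for Cxcr4 and 0.15 for Ccr7, against 0.66 for Cxcr2 and 0.64 for Ccr1. Within a training mouse the SD over those months was 0.50, 0.56 and 0.48, against 1.05 and 1.04. In the 6 validation mice the order between mice did not hold (0.29, 0.31 and 0.08, against 0.12 and 0.12), and the SD within a mouse was 0.45, 0.33 and 0.28, against 0.56 and 0.54.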

How the data were processed

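Blood RNA, labelled PBMC, was read as log2 CPM, 1 table a cohort, as the authors deposited it. The submitters' processing notes name STAR, Subread and featureCounts for both cohorts, edgeR for the training cohort only, and the build GRCm38. No version or treatment of multi-mapped reads was found in the labels. Each gene exceeded 0.5 CPM (training) or 5 CPM (validation) in at least 2 libraries. Whole reads were recovered for 100% of values (tolerance 0.01, prior 0.25 reads). No 2 libraries agreed within sampling noise. limma 3.58.1 (R 4.3.3) was fitted to log2 CPM with its trend option, and p-values were adjusted by Benjamini-Hochberg over the table at a threshold of 0.05. Arms were compared within a month with sex as a term; changes over time carried the mouse as block, since a mouse number names 1 animal. All 9 receptors are named, up to 3 passing genes of each other list, and the 3 most correlated genes with a mean above 1 log2 CPM, of which 1 is not reported here. The fits were tested on simulated data. The receptors and lists were chosen with earlier results of these data known. Scaling to Ptprc, removal of globin reads, same-month controls, other Ctrl months, the order at T0, the motif search and the label checks were chosen after the data were seen. Promoters are RefSeq's; exon lengths are GENCODE M1's.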

Additional observations from a re-analysis of the deposited data

Results flagged for a closer look

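In groups of 4 to 10 libraries, 28 single values stood apart from their group, of 297 groups tested, where chance alone marks about 1 in 20. All are log2 CPM, each with its nearest neighbour. Training CM mouse 3334 at T0 was highest in Cxcr2 (10.04, next 7.50) and Ccr1 (9.0, next 5.90) and lowest in Cxcr5 (6.72, next 8.18) and Ccr7 (7.10, next 8.18). Training Ctrl mouse 3349 was lowest in Cxcr3 at T2 (2.66, next 3.03), and at T8 in Cxcr3 (-2.43, next 1.13), Cxcr4 (3.93, next 6.16), Cxcr5 (3.08, next 5.10), Cxcr6 (-3.86, next 0.61) and Ccr7 (3.03, next 5.18). Validation CM mouse 2684 at T4 was lowest in Cxcr2 (4.54, next 7.21), Cxcr5 (5.28, next 7.44), Cxcr6 (3.27, next 4.52) and Ccr7 (5.63, next 7.95). Validation CM mouse 2731 at T2 was lowest in Cxcr3 (1.19, next 3.0) and Cxcr6 (2.92, next 4.00), and mouse 2718 at T5 in Cx3cr1 (4.34, next 6.66).

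In the other groups, validation Ctrl mouse 2705 at T3 was lowest in Cxcr2 (6.83, next 7.43) and Ccr1 (6.04, next 6.73), and mouse 2702 at T6 in Ccr7 (6.93, next 8.06). Training Ctrl mouse 3350 at T4 was lowest in Cxcr5 (6.12, next 7.48) and Ccr7 (6.11, next 7.71). Mouse 3339 was highest in Ccr2 at T0 (8.42, next 7.66) and lowest in Cxcr6 at T10 (-0.80, next 1.10). Mouse 3335 at T0 (2.92, next 3.17) and mouse 3342 at T5 (3.38, next 4.01) were lowest in Cxcr3. Training CM mouse 3341 at T5 was lowest in Cxcr5 (7.24, next 7.65) and Cx3cr1 (5.43, next 6.11).

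The change to the last library was set against the Ctrl change from T0 to T7. By a test of the difference itself it differed between arms in Cxcr4 (-2.11 log2), Cxcr5 (-1.68), Cx3cr1 (-1.45) and Ccr7 (-1.45). With the Ctrl change to T10 in its place 0 passed, and Cxcr5, Cx3cr1 and Ccr7 stood at 0.39, 0.21 and 0.43.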

How the results depend on the processing

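Over settings other than leaving out a mouse, 1650 values kept their side of the threshold and direction, 39 lost and 16 gained a call, and 32 called directions turned. With 1 mouse left out the figures were 2074, 40, 10 and 0. The fit over all months with the mouse as replicate block called 1 receptor at training month 1, 0 at month 2 and 1 at month 4, and in validation 0 at month 1 and 5 at month 3; with library group added it called 1 and 0 at training months 1 and 2. Without the sex term 1 passed at training month 3. For the block fit at training month 4 and validation month 1 the share of all genes is not given here. It is not given either with library group added or without the sex term, so these counts have no background. At validation month 1, 0 passed under median-ratio scaling, quantile normalization, removal of globin reads or scaling to Ptprc. Of 13607 genes 2508 passed under median-ratio scaling and 2570 scaled to Ptprc, and of 13602 genes 3174 with globin reads removed. The number under quantile normalization is not given here. The Ctrl change to T10 left 0 of the net calls, with Cxcr5 at 0.39, Cx3cr1 at 0.21 and Ccr7 at 0.43.

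Scaled to Ptprc, which itself fell, 1 receptor passed at each of training months 1, 2 and 3, 2 at the last library, 2 in the net change, 3 in Ctrl mice at T10 and 4 at L. Of 18508 genes, 1913, 1397 and 160 passed at those months. At the last library 12696 did, in the net change 10118 and in Ctrl mice at T10 8082. At L 11742 of 13607 genes passed. The medians of all genes were 2.12 log2 at the last library, 1.65 in the net change, 0.57 in Ctrl mice at T10 and 2.57 at L. At the last library Cxcr3 stood at 2.22, Cxcr5 at 0.21, Cxcr6 at 1.37, Cx3cr1 at 0.065, Ccr1 at 0.082, Ccr2 at 1.13 and Ccr7 at 0.21. In the net change Cxcr3 stood at 1.65, Cxcr5 at 0.14, Cx3cr1 at 0.36 and Ccr7 at 0.37. In Ctrl mice at T10 Cxcr3 stood at 1.36, Cxcr4 at 0.10 and Cxcr6 at 1.35. At L Cxcr3 stood at 1.62, Cxcr4 at 0.18, Cxcr6 at 0.73, Ccr1 at 0.62 and Ccr2 at 2.28. In Ctrl mice at T10, median-ratio scaling gave Cxcr3 0.68 and Cxcr6 0.67, and quantile normalization 0.46 and 0.35. Ctrl T5 in place of T10 called 1 receptor and gave Cxcr2 0.10, Cxcr3 0.85, Cxcr6 0.49, Cx3cr1 0.22, Ccr1 0.072 and Ccr2 0.21. The cause was not tested.

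Leaving out 1 mouse, the receptors called ranged from 1 to 2 at training months 1 and 2, 0 to 1 at month 3, 0 to 2 at validation month 1, 6 to 8 at the last library, 3 to 6 in the net change, 7 to 9 in Ctrl mice at T10 and 7 to 8 at L. Without mice 2700 and 2731, 1 receptor passed at validation month 1. The share of all genes in the fits that left out mice is not given here, so these counts have no background.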
